A study of Homo sapiens with 15 samples.

Results

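The 9 genes that write, maintain and erase DNA methylation were followed across hiPSCs, retinal organoids (ROs) and iMGCs, the cells that the samples' descriptions call Müller glial cells isolated from the organoids. The members DNMT1, UHRF1, DNMT3A, DNMT3B, DNMT3L, TET1, TET2, TET3 and TDG were matched by symbol, and each matched 1 of the 19684 genes in the tables. Gene positions below are those of GENCODE 29 (GRCh38). All 15 libraries came from 1 human line, BC1-GFP, so they hold no spread between donors. The groups, with 3 libraries each, were undifferentiated hiPSCs kept in mTeSR1 medium, neural retina layers of ROs on day 70 (D70-RO) and day 150 (D150-RO) of differentiation, and iMGCs grown out of D150 neural retina in DMEM with serum and taken on day 5 of passage 1 (P1 iMGC) or passage 5 (P5 iMGC). The neural retina layers of several ROs were pooled in each sample. The methods also give serum in the medium of the ROs, and an exchange of 1 supplement between day 70 and day 150. The labels give no further treatment or genetic change for any group.

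The depth of the libraries lay between 11349600 expected counts in D70-RO replicate 2 and 20398755 in hiPSC replicate 3. D70-RO replicate 2 also stood apart within its group, with a correlation of log2 CPM (counts scaled by library size) of 0.982 and 0.978 with the other 2 libraries, which reached 0.994 with each other. The marker genes matched the labels of hiPSCs (POU5F1 at 2027 FPKM) and of D150-ROs (CRX, a photoreceptor transcription factor, at 142 FPKM). They did not match the label of the iMGCs as clearly. Of the 6 Müller glia markers, RLBP1 and AQP4 were at or near 0 in both passages, SLC1A3 averaged 0.373 FPKM in P1 and 1.19 FPKM in P5, SOX9 5.21 and 3.59 FPKM, GLUL 13.4 and 14.6 FPKM, and VIM 2160 and 2858 FPKM. The 6 mesenchymal markers summed to between 12397 and 13906 FPKM in the iMGC libraries and between 22.1 and 43.2 FPKM in the RO libraries, and FN1 alone averaged 8340 FPKM in P1 iMGCs. The part of these cells' makeup in the values below was not tested.

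DNA methylation in mammals is placed mainly on cytosines that precede a guanine, the CpG sites. DNMT3A and DNMT3B set new methyl groups, DNMT3L has no catalytic activity of its own and stimulates them, and DNMT1 copies the pattern onto the new strand after replication, guided there by UHRF1, which binds hemimethylated CpGs. TET1, TET2 and TET3 oxidise methylcytosine, and TDG cuts out the oxidised bases that base excision repair then replaces with cytosine. High DNMT3B is a known feature of pluripotent cells, and DNMT3A and the TET enzymes are known to act in maturing neurons.

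FPKM, the fragments scaled by transcript length and library size, gives a level per length and is used here wherever levels are given. Differences were tested on the counts with edgeR's quasi-likelihood test, and a gene was called where the adjusted p was under 0.05 and the change at least 2-fold, among genes that reached 1 FPKM in at least 3 of the libraries compared. DNMT3L never passed that minimum, and TET1 did not pass it between the passages. TET2 entered the comparisons with hiPSCs only through its level in the other group, and TET1 entered those of P1 iMGCs only through D150-ROs or hiPSCs, so these genes had to differ once they were tested. With no minimum, the log2 fold change was 4.67 for TET2 in D150-ROs against hiPSCs and −3.21 for TET1 in P1 iMGCs against D150-ROs. The genes' own counts are the same in that setting, so these values are no further support. The comparisons share hiPSCs or D150-ROs as controls and are not independent of each other. Batch and group cannot be told apart here: the methods name 1 sequencing company, but the deposited design adds another one and mentions batch correction.

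**Figure D1:**
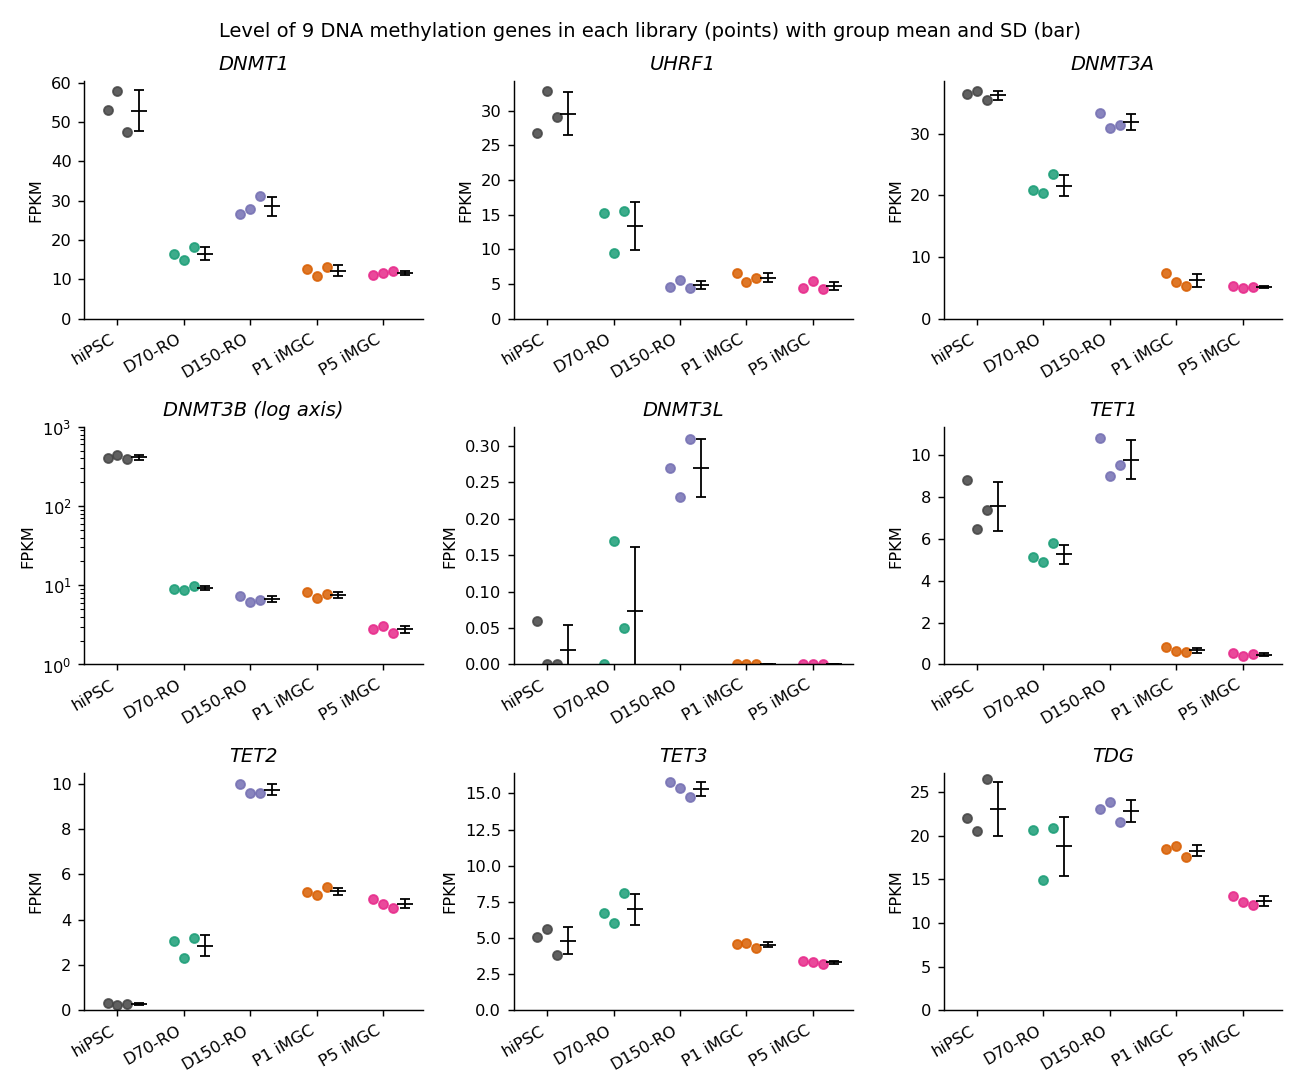
FPKM of the 9 genes in each of the 15 libraries (points, 3 per group) with the mean and SD of each group (bars), on linear axes from 0 except for DNMT3B, whose axis is logarithmic. DNMT3B stood at 395 to 442 FPKM in hiPSCs and under 10 FPKM in all other libraries, whereas TET2 was under 0.35 FPKM in hiPSCs and highest in D150-ROs.

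Between hiPSCs and D70-ROs, 4 of the 8 tested members were called, 1 higher (TET2) and 3 lower (DNMT3B, DNMT1 and UHRF1), where 43.5% of all tested genes were called, 22.5% higher and 21.1% lower. Between D70-ROs and D150-ROs it was 2 of 8, TET2 higher and UHRF1 lower, against 33.3% of all genes, 16.6% higher and 16.7% lower. Between hiPSCs and D150-ROs it was 5 of 8, with TET2 and TET3 higher and DNMT3B, UHRF1 and DNMT1 lower, against 58.8% of all genes, 29.8% higher and 29.0% lower. In P1 iMGCs against D150-ROs 4 of 8 were called, UHRF1 higher and TET1, DNMT3A and TET3 lower, against 44.1% of all genes, 20.0% higher and 24.1% lower. In P1 iMGCs against hiPSCs 6 of 8 were called, TET2 higher and DNMT3B, TET1, UHRF1, DNMT1 and DNMT3A lower, against 55.8%, 26.1% higher and 29.7% lower. These shares are near those of all genes and are no result about the members as a group. Between P5 and P1 iMGCs only DNMT3B was called, of 7 tested, against 2.92% of all genes, 1.94% higher and 0.977% lower.

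DNMT1, the maintenance methyltransferase (ENSG00000130816, chromosome 19, 10133345 to 10231286, minus strand), was highest in hiPSCs, fell in D70-ROs and was intermediate in D150-ROs. Its FPKM in the libraries was 53.0, 58.0 and 47.6 in hiPSCs, 16.5, 14.8 and 18.2 in D70-ROs, 26.6, 28.0 and 31.3 in D150-ROs, 12.8, 10.8 and 13.2 in P1 iMGCs, and 11.0, 11.5 and 12.1 in P5 iMGCs. The hiPSC, D150-RO and D70-RO libraries formed 3 separate ranges, and only the ranges of P1 and P5 iMGCs overlapped. Relative to hiPSCs, DNMT1 was 3.57-fold lower in D70-ROs (log2 fold change −1.84 ± 0.13 SE, adjusted p = 1.80e-07) and 2.37-fold lower in D150-ROs (−1.24 ± 0.10, adjusted p = 2.11e-07). The difference between D150-ROs and D70-ROs was 0.59 ± 0.10 on the log2 scale (adjusted p = 0.000515), and that between P1 iMGCs and D150-ROs was −0.68 ± 0.06 (adjusted p = 7.14e-08), neither of them 2-fold. On the log2(FPKM + 1) scale, tested with limma, the difference of D150-ROs from hiPSCs was −0.86, under 2-fold, and that of P1 iMGCs from D150-ROs −1.16, over 2-fold. With the trend over gene length removed (an alternative taken up with the TET genes) D150-ROs differed from D70-ROs by 0.15 (adjusted p = 0.145) and from hiPSCs by −2.004, so the intermediate level depended on the treatment of length. S1PR2 lies within the bounds of DNMT1 on the same strand, so reads of the 2 genes may have been shared.

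UHRF1, the reader that brings DNMT1 to hemimethylated sites (ENSG00000276043, chromosome 19, 4903080 to 4962154, plus strand), fell at both steps of organoid differentiation. It measured 26.7, 32.9 and 29.1 FPKM in hiPSCs, 15.2, 9.41 and 15.5 FPKM in D70-ROs, and 4.55, 5.58 and 4.42 FPKM in D150-ROs, with no overlap among these groups. The lowest D70-RO value was that of replicate 2, the library that stood apart. From hiPSCs to D70-ROs UHRF1 fell 2.39-fold (log2 fold change −1.26 ± 0.19 SE, adjusted p = 8.81e-05), and from there to D150-ROs 3.28-fold (−1.72 ± 0.19, adjusted p = 5.54e-05). Without D70-RO replicate 2 these values were −1.06 and −1.92, and both were still called. Against a null of a 2-fold change the D70-RO value was no longer called (adjusted p = 0.0844).

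In iMGCs UHRF1 measured 6.63, 5.36 and 5.82 FPKM in P1 and 4.41, 5.38 and 4.32 FPKM in P5, both overlapping the D150-RO range. The counts placed P1 iMGCs 2.01-fold above D150-ROs (log2 fold change 1.00 ± 0.10 SE, adjusted p = 1.07e-07), just over the 2-fold limit. The call was lost without D150-RO replicate 1 (0.97), D150-RO replicate 3 (0.97) or P1 iMGC replicate 1 (0.93), with upper-quartile factors (0.89) and with DESeq2 (0.999). On the log2(FPKM + 1) scale the difference was 0.25 (adjusted p = 0.0541, limma). The scales differ in P1 iMGCs against D150-ROs for genes in general. The median of all tested genes was −0.59 on the log2(FPKM + 1) scale and −0.05 in the count test, and corresponding medians were −0.35 and −0.08 in P1 iMGCs against hiPSCs and 0.27 and −0.02 in D150-ROs against hiPSCs. Over all genes, 1329 were called higher and 4478 lower in P1 iMGCs against D150-ROs on log2(FPKM + 1), where the counts gave 2581 and 3105. For P1 iMGCs against hiPSCs the 2 scales gave 2279 and 4127 against 3307 and 3759, for D150-ROs against hiPSCs 4249 and 2822 against 3977 and 3865, and for D150-ROs against D70-ROs 2250 and 1302 against 2131 and 2145.

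The ratio of DNMT1 to UHRF1 in FPKM separated D150-ROs from all other groups. It was 1.80 ± 0.17 (SD, n = 3) in hiPSCs, 1.28 ± 0.26 in D70-ROs, 5.98 ± 1.04 in D150-ROs, 2.07 ± 0.18 in P1 iMGCs and 2.48 ± 0.33 in P5 iMGCs. The lowest D150-RO library, at 5.02, lay above the highest of the other 12, at 2.81. A list of 13 proliferation genes, such as MKI67 and the MCM genes of the replicative helicase, summed to 1260 FPKM in hiPSCs, 474 in D70-ROs, 192 in D150-ROs, 103 in P1 iMGCs and 89.9 in P5 iMGCs. All 13 were tested, and 8 were called lower from hiPSCs to D70-ROs and 10 from D70-ROs to D150-ROs. Of all tested genes 21.1% and 16.7% were called lower at these steps. In P1 iMGCs against D150-ROs the counts called 2 of the 13 higher and 2 lower, with a median log2 fold change of −0.24. There 20.0% of all tested genes were called higher and 24.1% lower. The amounts below use FPKM, on which genes in general were lower in P1 iMGCs (median −0.59, beside −0.05 on the counts). Per 100 FPKM of that list, DNMT1 amounted to 4.21 FPKM in hiPSCs, 3.47 in D70-ROs, 14.9 in D150-ROs, 11.9 in P1 iMGCs and 12.9 in P5 iMGCs, while UHRF1 amounted to 2.35, 2.80, 2.53, 5.75 and 5.26 FPKM. DNMT1 per unit of the list was thus lower in each of the 6 hiPSC and D70-RO libraries than in each of the other 9. The part of cell division in these levels was not tested. In these bulk samples fewer cells with a transcript and less of it per cell cannot be told apart.

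DNMT3B, a de novo methyltransferase (ENSG00000088305, chromosome 20, 32762385 to 32809356, plus strand), had the largest fold change of the tested members. It measured 399, 442 and 395 FPKM in hiPSCs, 8.98, 8.80 and 9.87 FPKM in D70-ROs, 7.42, 6.20 and 6.56 FPKM in D150-ROs, 8.12, 6.96 and 7.67 FPKM in P1 iMGCs, and 2.78, 3.07 and 2.47 FPKM in P5 iMGCs. All hiPSC libraries were far above the rest, and the P5 iMGC libraries were below all others. Relative to hiPSCs, DNMT3B was 56.9-fold lower in D70-ROs (log2 fold change −5.83 ± 0.13 SE, adjusted p = 1.68e-10) and 90.3-fold lower in D150-ROs (−6.50 ± 0.11, adjusted p = 1.42e-12). The step from D70-ROs to D150-ROs was −0.67 ± 0.10 (adjusted p = 0.000371) and stayed under 2-fold.

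Between the passages DNMT3B fell 2.66-fold in P5 iMGCs, from 7.58 ± 0.58 to 2.77 ± 0.30 FPKM (log2 fold change −1.41 ± 0.09 SE, adjusted p = 9.18e-12). It was called in this direction under each alternative tried, and with 1 library left out the value lay between −1.50 and −1.35. From D150-ROs to P1 iMGCs the counts gave 0.89 ± 0.08 (adjusted p = 4.75e-08), under 2-fold, with overlapping FPKM ranges and a difference of 0.15 on the log2(FPKM + 1) scale.

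DNMT3A, the second de novo enzyme (ENSG00000119772, chromosome 2, 25227855 to 25342590, minus strand), kept a high level in ROs and fell in iMGCs. Its libraries measured 36.4, 36.9 and 35.5 FPKM in hiPSCs, 20.8, 20.3 and 23.5 FPKM in D70-ROs, 33.4, 30.9 and 31.5 FPKM in D150-ROs, 7.38, 5.96 and 5.34 FPKM in P1 iMGCs, and 5.23, 4.99 and 5.15 FPKM in P5 iMGCs. Every RO library exceeded every iMGC library. DNMT3A was 4.58-fold lower in P1 iMGCs than in D150-ROs (log2 fold change −2.19 ± 0.05 SE, adjusted p = 3.14e-15) and 3.50-fold lower than in hiPSCs (−1.81 ± 0.09, adjusted p = 3.22e-09). No step between hiPSCs, D70-ROs and D150-ROs was called.

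For DNMT3A in D150-ROs against hiPSCs the counts and the FPKM went in opposite directions. The log2 fold change was 0.39 ± 0.08 SE on the counts (adjusted p = 0.000810) and −0.18 on the log2(FPKM + 1) scale (adjusted p = 0.0495, limma). The deposited count divided by the FPKM and the library total gives the effective transcript length that the authors' quantification used in each library. For DNMT3A that length was 3575, 3772 and 3540 bases in hiPSCs, 5504, 5095 and 5309 in D70-ROs, 6727, 6920 and 7233 in D150-ROs, 4474, 5195 and 5484 in P1 iMGCs, and 5016, 5093 and 4692 in P5 iMGCs. It was thus shortest in hiPSCs and longest in D150-ROs, and the hiPSC, D70-RO and D150-RO ranges did not overlap. The mean in D150-ROs was 1.92 times that in hiPSCs, a ratio exceeded by 0.551% of the 10716 genes with 1 FPKM in all 6 libraries.

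A change of at least 1.5-fold in this length, in either direction, was found in 2.58% of genes between hiPSCs and D150-ROs, and among the 7 members with a value it was found only in DNMT3A. In the other 5 comparisons no member reached 1.5-fold, against 1.31% of genes for D70-ROs against hiPSCs, 0.924% for D150-ROs against D70-ROs, 1.27% for P1 iMGCs against D150-ROs, 0.0745% for P5 against P1 iMGCs and 1.27% for P1 iMGCs against hiPSCs. DNMT3B was at 4307 to 4310 bases in hiPSCs and at 3664 to 3815 bases in both RO groups. DNMT1 was at 5184 to 5353 bases in hiPSCs and ROs and at 4136 to 4895 bases in P5 iMGCs. TET1 and TET3 stayed within 9281 to 9295 and 10924 to 11393 bases in the groups where they reached 1 FPKM.

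**Figure D2:**
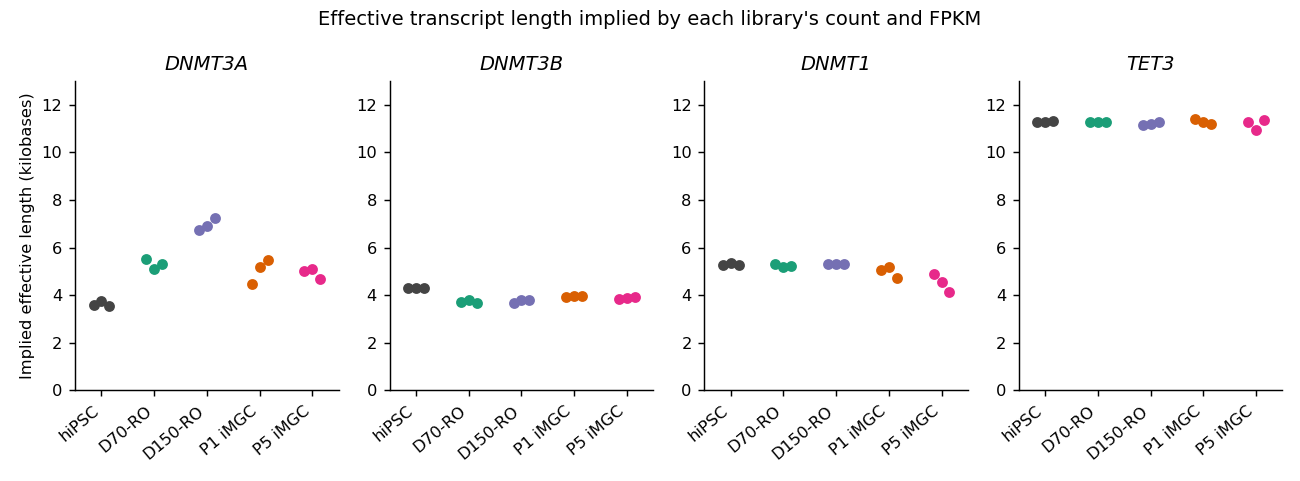
Effective transcript length in kilobases implied by the count and FPKM of each library (points, 3 per group) for DNMT3A, DNMT3B, DNMT1 and TET3, on axes from 0. DNMT3A went from 3540 to 3772 bases in hiPSCs to 6727 to 7233 bases in D150-ROs, while TET3 stayed between 10924 and 11393 bases.

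GENCODE 29 lists 5 coding transcripts of DNMT3A. One of 9501 bases starts at the upstream end of the gene (position 25342590) and one of 4279 bases at 25341885, whereas those of 3589 and 2300 bases start inside the gene, at 25252311. A shorter DNMT3A protein from an internal promoter is known in embryonic stem cells. Which transcripts gave the reads was not tested, because only values per gene were used. The last, of 1775 bases, also starts at 25342590. Of the promoter windows that RefSeq gives for DNMT3A (GRCh38.p14, 250 bases before to 50 bases after a start, minus strand), 2 are shown, because they hold the GENCODE starts of the 4279-base transcript and of those that begin inside the gene. The start at 25342590 lies outside both. CpG sites, the targets of the enzymes themselves, are in capitals.
DNMT3A upstream start, chr2:25341876-25342175: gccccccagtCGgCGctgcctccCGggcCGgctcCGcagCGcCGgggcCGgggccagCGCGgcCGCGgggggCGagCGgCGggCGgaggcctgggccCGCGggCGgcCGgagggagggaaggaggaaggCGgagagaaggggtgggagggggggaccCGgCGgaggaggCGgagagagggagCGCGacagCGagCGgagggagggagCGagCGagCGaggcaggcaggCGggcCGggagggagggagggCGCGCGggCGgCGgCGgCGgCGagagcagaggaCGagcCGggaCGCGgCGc
DNMT3A internal start, chr2:25252266-25252565: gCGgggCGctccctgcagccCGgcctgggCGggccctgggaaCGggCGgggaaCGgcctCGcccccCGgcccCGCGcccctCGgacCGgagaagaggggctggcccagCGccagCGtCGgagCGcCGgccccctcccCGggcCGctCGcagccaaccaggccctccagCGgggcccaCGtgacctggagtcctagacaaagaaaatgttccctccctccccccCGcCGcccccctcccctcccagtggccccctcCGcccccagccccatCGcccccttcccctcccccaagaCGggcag
The printed upstream window holds 46 CpGs, a number reached by 2.89% of the 35116 windows in the table. The printed internal window holds 28, reached by 26.2%. Other DNMT3A windows, not shown, hold fewer: those with the start at 25342590 have 26 and 18. The internal start also lies in windows of 26 and 18 CpGs, so the contrast depends on the windows shown. The median window holds 14. Windows were found for 8 of the 9 members, all except DNMT3L.

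DNMT3L, the catalytically inactive partner of the de novo enzymes (ENSG00000142182, chromosome 21, 44246339 to 44262216, minus strand), was close to the limit of detection. Its counts summed to 2 over the 3 hiPSC libraries, 4 in D70-ROs, 19 in D150-ROs and 0 in both passages of iMGCs. All 3 D150-RO libraries had it, at 0.27, 0.23 and 0.31 FPKM. D150-ROs had 11.7 times the hiPSC share of counts, with an exact 95% interval of 2.82 to 104. With 3 counts over a group as the limit for a count of 0, they were 6.50-fold above P1 iMGCs and 6.49-fold above P5 iMGCs. In these 2 values the 19 counts of D150-ROs were taken without error. Both hiPSC counts came from replicate 1, and without that library hiPSCs had 0 counts and the ratio had no finite value. The interval covers counting error only, and the fold values over iMGCs allow for that of the iMGC counts only. An antisense gene, AP001059.1, overlaps DNMT3L, and whether the counting used the strand was not given in the sources used here.

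The makeup of the DNMT3 family, as shares of its summed FPKM, was turned over between groups. DNMT3B made up 91.9 ± 0.36% (SD, n = 3) in hiPSCs, 29.9 ± 0.32% in D70-ROs, 17.3 ± 0.75% in D150-ROs, 55.1 ± 3.4% in P1 iMGCs and 35.1 ± 2.9% in P5 iMGCs. DNMT3A made up nearly all of the remainder, with 8.10%, 69.8%, 82.0%, 44.9% and 64.9%. The larger share was therefore that of DNMT3B in hiPSCs and P1 iMGCs and that of DNMT3A in ROs and P5 iMGCs, in every library of each group. The family's sum was 448 ± 27 FPKM in hiPSCs, 30.8 ± 2.2 in D70-ROs, 38.9 ± 1.9 in D150-ROs, 13.8 ± 1.5 in P1 iMGCs and 7.90 ± 0.24 in P5 iMGCs, and so did not follow the DNMT3B share at each step. These shares use the effective lengths above, which moved for DNMT3A.

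TET2 (ENSG00000168769, chromosome 4, 105145875 to 105279816, plus strand), a dioxygenase well known from blood cells, was nearly absent in hiPSCs and rose through organoid differentiation. Its libraries measured 0.34, 0.25 and 0.26 FPKM in hiPSCs, 3.04, 2.32 and 3.20 FPKM in D70-ROs, 10.0, 9.62 and 9.61 FPKM in D150-ROs, 5.21, 5.11 and 5.43 FPKM in P1 iMGCs, and 4.91, 4.70 and 4.51 FPKM in P5 iMGCs. No 2 groups overlapped in FPKM. The hiPSC level rested on 66, 46 and 53 counts. Relative to hiPSCs, TET2 was 8.73-fold higher in D70-ROs (log2 fold change 3.13 ± 0.21 SE, adjusted p = 1.65e-07), 25.4-fold higher in D150-ROs (4.67 ± 0.13, adjusted p = 1.37e-11) and 21.5-fold higher in P1 iMGCs (4.42 ± 0.13, adjusted p = 5.51e-11). From D70-ROs to D150-ROs it rose 2.90-fold (1.54 ± 0.14, adjusted p = 1.22e-05). In P1 iMGCs against D150-ROs the counts gave only −0.24 ± 0.05 (adjusted p = 0.000627), under 2-fold. Between P5 and P1 iMGCs they gave −0.08 ± 0.06 (adjusted p = 0.297), although the FPKM ranges lay apart. TET2-AS1 lies on the other strand of TET2.

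TET1 (ENSG00000138336, chromosome 10, 68560656 to 68694482, plus strand), the TET enzyme best known from pluripotent cells, was expressed in hiPSCs and ROs and low in iMGCs. It measured 8.79, 6.47 and 7.38 FPKM in hiPSCs, 5.10, 4.87 and 5.77 FPKM in D70-ROs, 10.8, 8.98 and 9.49 FPKM in D150-ROs, 0.82, 0.63 and 0.58 FPKM in P1 iMGCs, and 0.54, 0.39 and 0.48 FPKM in P5 iMGCs. The iMGC libraries were all under 1 FPKM and below every hiPSC and RO library. TET1 was 9.28-fold lower in P1 iMGCs than in D150-ROs (log2 fold change −3.21 ± 0.11 SE, adjusted p = 1.56e-13) and 9.24-fold lower than in hiPSCs (−3.21 ± 0.15, adjusted p = 2.33e-09). D150-ROs and hiPSCs differed by 0.01 ± 0.12 (adjusted p = 0.935).

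The most upstream RefSeq windows of TET1 and TET2 (GRCh38.p14, plus strand) are shown, again with CpGs in capitals. These genes were chosen because the paralogues stood at opposite ends in hiPSCs and iMGCs.
TET1, chr10:68560087-68560386: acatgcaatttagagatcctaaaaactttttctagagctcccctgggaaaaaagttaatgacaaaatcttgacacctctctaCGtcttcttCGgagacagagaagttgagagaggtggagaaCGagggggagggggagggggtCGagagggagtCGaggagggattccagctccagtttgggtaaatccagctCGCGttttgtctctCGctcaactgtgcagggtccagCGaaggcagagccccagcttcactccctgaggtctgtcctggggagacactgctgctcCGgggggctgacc
TET2, chr4:105145625-105145924: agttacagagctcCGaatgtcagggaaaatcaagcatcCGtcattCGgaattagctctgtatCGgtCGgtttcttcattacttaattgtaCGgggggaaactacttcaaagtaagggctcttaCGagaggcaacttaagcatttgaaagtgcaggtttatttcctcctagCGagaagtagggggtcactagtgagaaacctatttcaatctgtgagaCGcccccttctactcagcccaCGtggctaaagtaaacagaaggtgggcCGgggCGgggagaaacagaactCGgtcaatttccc
The TET1 window holds 10 CpGs and the TET2 window 13, numbers reached by 56.4% and 51.7% of all windows. The printed TET1 window ends before the GENCODE start of TET1 at 68560656. Further TET1 windows, 68600018 to 68600317 and 68600224 to 68600523, hold 6 and 11 CpGs. A second TET2 window (105146626 to 105146925) holds 35 CpGs, reached by 14.1%. Both printed windows lay near the median of 14, unlike the printed upstream window of DNMT3A. The counts describe these windows only, and methylation was not measured.

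TET3 (ENSG00000187605, chromosome 2, 73986404 to 74108176, plus strand), the enzyme that acts in the zygote and is expressed in neurons, was highest in D150-ROs. It measured 5.07, 5.60 and 3.80 FPKM in hiPSCs, 6.75, 6.05 and 8.13 FPKM in D70-ROs, 15.8, 15.4 and 14.8 FPKM in D150-ROs, 4.61, 4.63 and 4.34 FPKM in P1 iMGCs, and 3.39, 3.37 and 3.21 FPKM in P5 iMGCs. The D150-RO libraries lay above all others, and hiPSCs and P1 iMGCs overlapped. On the counts TET3 was 2.45-fold higher in D150-ROs than in hiPSCs (log2 fold change 1.29 ± 0.13 SE, adjusted p = 1.18e-06) and 2.15-fold lower in P1 iMGCs than in D150-ROs (−1.10 ± 0.05, adjusted p = 7.35e-12). The difference of 0.90 ± 0.11 between D150-ROs and D70-ROs missed the 2-fold limit, and passed it without D70-RO replicate 3 (1.01). Mean FPKM of TET3 was 15.3 in D150-ROs and 6.98 in D70-ROs. In this comparison limma called 3 members on log2(FPKM + 1) and log2(FPKM + 0.1), where the counts called 2.

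The TET genes are long, and long genes as a whole moved between these groups. The effective lengths of TET1, TET2 and TET3 put all 3 in the longest quartile of tested genes, whose median log2 fold change was 0.86 in D150-ROs against hiPSCs, while that of the shortest quartile was −0.83. In D150-ROs against D70-ROs the corresponding medians were 0.55 and −0.67, and in P1 iMGCs against hiPSCs 0.64 and −0.64. They were 0.26 and −0.11 in D70-ROs against hiPSCs, −0.24 and 0.26 in P1 iMGCs against D150-ROs, and −0.01 and 0.02 between the passages. With this trend over length removed, an alternative added after the data were seen, TET2 remained called against hiPSCs at 3.27 in D150-ROs and 2.75 in D70-ROs, but not between the organoid stages (0.63). TET3 in D150-ROs against hiPSCs turned from 1.29 to −0.33, and its difference between P1 iMGCs and D150-ROs went from −1.10 to −0.83, under 2-fold. TET1 in D150-ROs against hiPSCs turned from 0.01 to −1.38, past the 2-fold limit. Other called values that moved by over 1.5 times were those in P1 iMGCs against hiPSCs, to −2.53 for DNMT1, −2.39 for DNMT3A, −4.36 for TET1 and 3.26 for TET2. The direction of TET3 in the organoids therefore depended on the treatment of length, and the source of the trend was not tested.

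**Figure D3:**
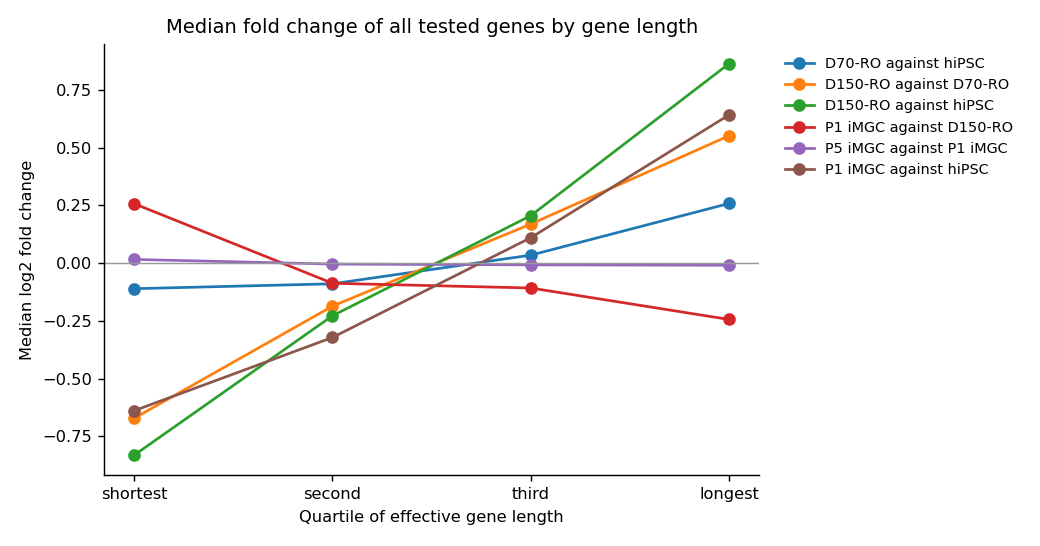
Median log2 fold change of all tested genes (vertical axis) in quartiles of effective gene length (horizontal axis), with 1 line for each of the 6 comparisons. Medians ran from −0.83 in the shortest to 0.86 in the longest quartile in D150-ROs against hiPSCs and stayed between −0.01 and 0.02 between P5 and P1 iMGCs.

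**Figure D4:**
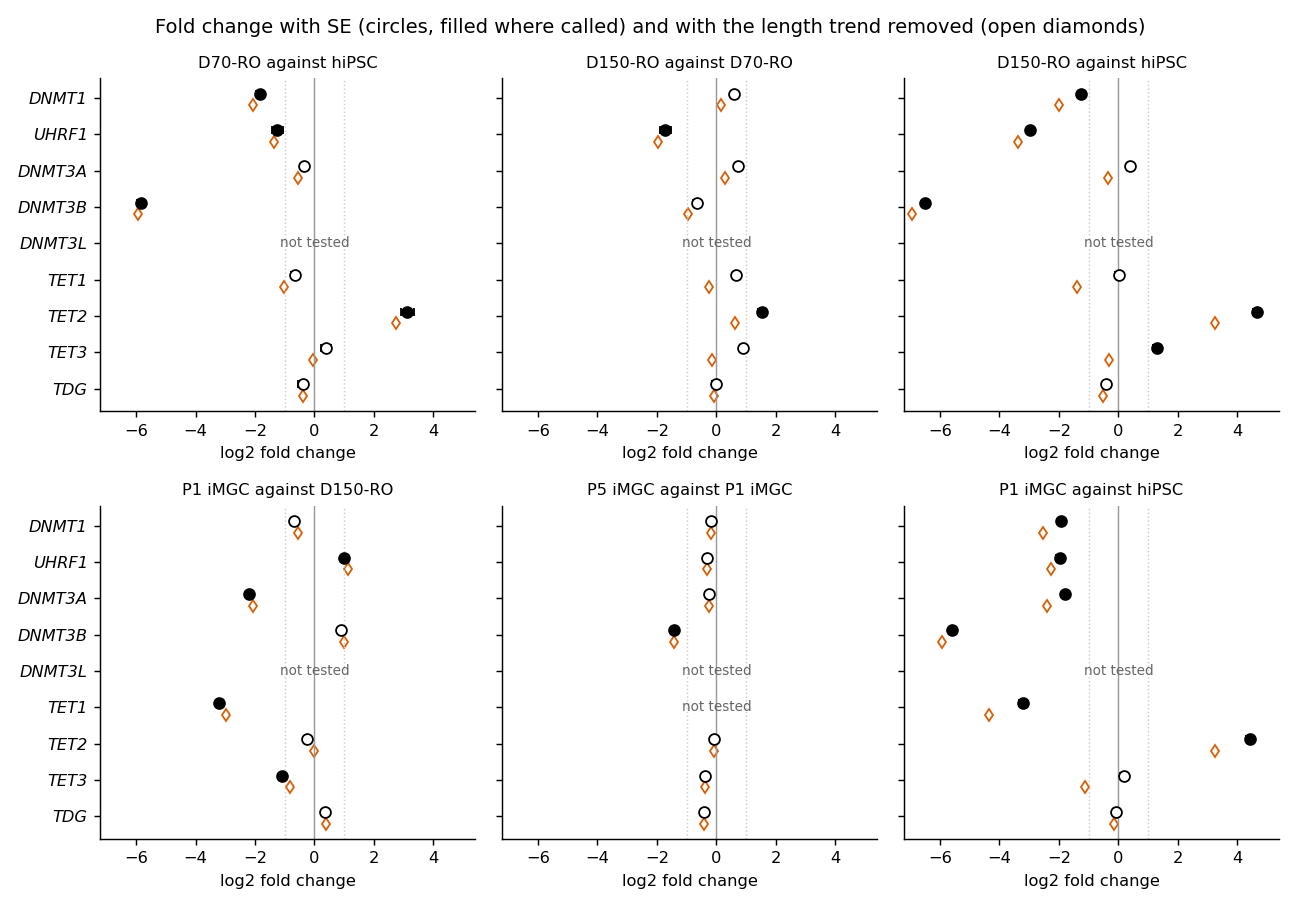
Log2 fold change of each member in the 6 comparisons from the count test with its SE (circles, filled where called) and with the trend over gene length removed (open diamonds); dotted lines mark 2-fold. DNMT3B lay at −5.83, −6.50 and −5.61 in the 3 comparisons with hiPSCs, and TET3 in D150-ROs against hiPSCs moved from 1.29 to −0.33.

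Within the TET family the shares of FPKM passed from TET1 to TET2. TET1 made up 59.6 ± 6.3% (SD, n = 3) in hiPSCs, 34.9 ± 1.6% in D70-ROs, 28.0 ± 1.5% in D150-ROs, 6.46 ± 1.1% in P1 iMGCs and 5.52 ± 0.80% in P5 iMGCs. TET2 made up 2.23%, 18.9%, 28.0%, 50.2% and 55.4% in the same order, and the ranges of the 5 groups did not overlap. TET3 stayed between 33.2% and 47.5% in every library. The sum of the 3 genes was 12.7 ± 1.4 FPKM in hiPSCs, 15.1 ± 1.9 in D70-ROs, 34.8 ± 1.5 in D150-ROs, 10.5 ± 0.16 in P1 iMGCs and 8.50 ± 0.32 in P5 iMGCs.

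**Figure D5:**
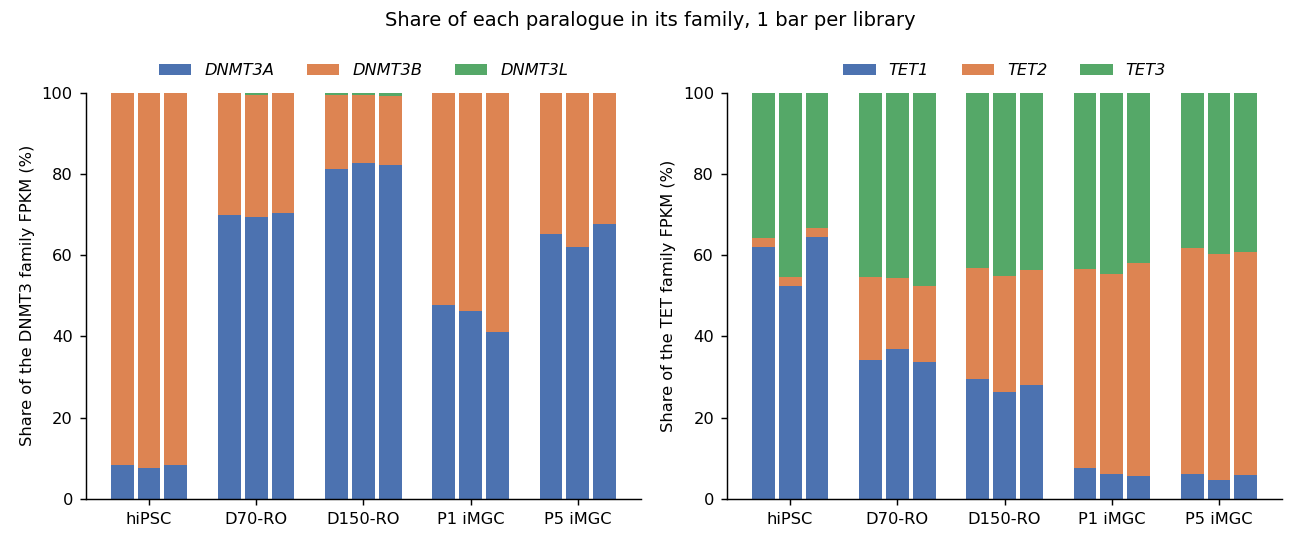
Share of each paralogue in the summed FPKM of the DNMT3 family (left) and the TET family (right), in percent, with 1 stacked bar per library and 3 bars per group. DNMT3B takes 91.6% to 92.3% of its family in hiPSCs and 16.6% to 18.1% in D150-ROs, and TET2 takes 2.03% to 2.39% of its family in hiPSCs and a mean of 55.4% in P5 iMGCs.

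TDG, the glycosylase that removes oxidised methylcytosine (ENSG00000139372, chromosome 12, 103965804 to 103988874, plus strand), varied least among the detected members and was called in 0 of the 6 comparisons by edgeR, DESeq2 or limma. It measured 22.0, 20.5 and 26.5 FPKM in hiPSCs, 20.6, 14.9 and 20.9 FPKM in D70-ROs, 23.0, 23.9 and 21.5 FPKM in D150-ROs, 18.4, 18.8 and 17.6 FPKM in P1 iMGCs, and 13.1, 12.4 and 12.0 FPKM in P5 iMGCs. Only the P5 iMGC range lay apart from all others. P5 differed from P1 iMGCs by −0.42 ± 0.06 on the log2 scale (adjusted p = 1.63e-06), under 2-fold. In P1 iMGCs against D150-ROs the sign depended on the scale, with 0.36 ± 0.06 on the counts (adjusted p = 5.15e-05) and −0.31 on log2(FPKM + 1). A pseudogene copy, TDGP1, is annotated, and reads may have been divided between the copies.

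Non-overlapping FPKM ranges were frequent among all genes, so they set the members apart little. They were found in 7 of 8 tested members between hiPSCs and D70-ROs (75.5% of all tested genes), 8 of 8 between D70-ROs and D150-ROs (77.2%), 7 of 8 between hiPSCs and D150-ROs (87.4%), 6 of 8 in P1 iMGCs against D150-ROs (87.9%), 5 of 7 between the passages (39.5%) and 7 of 8 in P1 iMGCs against hiPSCs (86.0%).

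The machinery around these enzymes was described by a list of 40 genes in 5 roles. Maintenance partners help DNMT1 and UHRF1 at the replication fork or recruit silencing. Relative to hiPSCs, 3 of the 8 tested fell in D70-ROs, 5 in D150-ROs and 6 in P1 iMGCs, where 21.1%, 29.0% and 29.7% of all tested genes were called lower, and the others were not called. Their median log2 fold changes were −0.91, −1.75 and −2.12, beside medians of all genes of 0.02, −0.02 and −0.08. CDCA7, the activator of the remodeller HELLS, fell from 32.7 ± 0.99 FPKM in hiPSCs to 8.63 ± 1.2 in D70-ROs and 3.20 ± 0.77 in D150-ROs (log2 fold changes of −2.06 and −3.78, adjusted p = 1.34e-07 and 1.18e-10). The log2 fold change of HELLS itself was −1.73 in D70-ROs against hiPSCs (adjusted p = 2.54e-05), and that of TRIM28, the corepressor of zinc-finger proteins, was −1.85 in D150-ROs against D70-ROs (adjusted p = 4.78e-06). The 13 proliferation genes all fell in D150-ROs and in P1 iMGCs against hiPSCs, beside 29.0% and 29.7% of all tested genes. The part of cell division in the falls of the maintenance partners was not tested.

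Among 8 genes listed as readers of methylated DNA, 3 rose in D70-ROs, 4 in D150-ROs and 4 in P1 iMGCs relative to hiPSCs. The others were not called. Of those called in P1 iMGCs, MBD2 rose only on the counts (log2 fold change 1.57). Its mean FPKM was lower there, at 9.15 beside 15.6 in hiPSCs. Of all tested genes 22.5%, 29.8% and 26.1% were called higher, and with 8 genes these counts do not set the readers apart. Their medians were 0.78, 0.99 and 1.01. ZBTB38, a zinc-finger reader, rose from 2.25 ± 0.74 FPKM in hiPSCs to 9.49 ± 3.3 in D70-ROs, 19.5 ± 1.4 in D150-ROs and 32.8 ± 3.3 in P1 iMGCs (log2 fold changes of 1.96, 2.59 and 3.95 against hiPSCs, adjusted p = 3.91e-05, 3.20e-08 and 1.80e-09). With the trend over length removed these were 1.82, 2.09 and 3.59 and still called. ZBTB4, another such reader, rose between the organoid stages (log2 fold change 1.17, adjusted p = 2.71e-06), a change that went to 0.63 with the trend over length removed.

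Among the partners and regulators of TET enzymes, CXXC4, a CpG-binding protein that binds TET2 and lowers its level, was high in organoids and low in hiPSCs and iMGCs. Being under 1 FPKM in both of the latter, it entered these comparisons only through the organoids, so it had to differ once tested. It was at 0.56 ± 0.12 FPKM in hiPSCs, 6.39 ± 0.42 in D70-ROs, 12.5 ± 0.30 in D150-ROs and 0.81 ± 0.08 in P1 iMGCs (log2 fold changes of 3.37 and 4.12 against hiPSCs and −3.31 in P1 iMGCs against D150-ROs, adjusted p = 4.65e-08, 7.73e-11 and 9.45e-15). QSER1, which protects CpG-rich regions together with TET1, rose between the organoid stages (1.30, adjusted p = 7.07e-06), but with the trend over length removed the value was 0.49, which was not called. IDH1 and IDH2, the cytosolic and mitochondrial enzymes that make the TET cofactor oxoglutarate, changed at different steps. IDH1 fell from 207 ± 24 to 48.7 ± 3.6 FPKM between hiPSCs and D70-ROs (−2.24, adjusted p = 2.68e-08), and IDH2 fell from a mean of 71.98 FPKM in D70-ROs to 28.0 FPKM in D150-ROs (−1.58, adjusted p = 7.79e-07). IDH2 then rose to 46.1 ± 2.4 FPKM in P1 iMGCs (1.34 against D150-ROs, adjusted p = 1.16e-12), under 2-fold on the FPKM scale and not above its mean of 61.7 FPKM in hiPSCs (−0.14, adjusted p = 0.107).

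A further 11 genes were listed under base excision repair after TDG. They included other glycosylases, such as UNG, and the stress-inducible GADD45A and GADD45B, so not all of them act after TDG. Of the 11, 5 fell and 2 rose in P1 iMGCs against hiPSCs, where 29.7% of all tested genes were called lower and 26.1% higher. In D150-ROs 4 fell and 2 rose, where the shares of all genes were 29.0% and 29.8%. These counts are near those of genes in general. UNG, the uracil glycosylase, fell from 110 ± 7.6 FPKM in hiPSCs to 14.8 ± 0.85 in D150-ROs and 6.38 ± 0.59 in P1 iMGCs (−3.23 and −3.81, adjusted p = 3.11e-11 and 3.20e-11). PARP1, the strand-break sensor, fell to 27.3 ± 1.7 FPKM in P1 iMGCs, from 114 ± 3.1 in D150-ROs and 315 ± 5.2 in hiPSCs (−1.47 and −3.04, adjusted p = 1.35e-13 and 2.22e-11). NEIL1 and GADD45A rose in D150-ROs and GADD45A and GADD45B in P1 iMGCs. GADD45A, a stress-inducible gene linked to demethylation, rose from 6.06 ± 0.91 FPKM in hiPSCs to 40.2 ± 3.6, 47.4 ± 5.3 and 35.4 ± 0.81 FPKM in D70-ROs, D150-ROs and P1 iMGCs (2.56, 2.59 and 2.77, adjusted p = 9.49e-08, 1.68e-09 and 8.01e-10). Its relative GADD45B rose to 40.3 ± 2.6 FPKM in P1 iMGCs from 6.12 ± 0.70 in D150-ROs and 3.32 ± 0.81 in hiPSCs (3.41 and 3.99, adjusted p = 1.56e-14 and 3.39e-10).

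NEIL1, another glycosylase, rose from 3.04 ± 1.5 to 5.65 ± 0.90 FPKM between D70-ROs and D150-ROs (1.56, adjusted p = 0.000723), which was not called with limma on FPKM, and fell to 1.31 ± 0.37 FPKM in P1 iMGCs (−1.82, adjusted p = 2.26e-07). Of the 5 genes of methyl donor supply, AHCY, which clears the methylation product S-adenosylhomocysteine, fell from 408 ± 9.5 FPKM in hiPSCs and 209 ± 30 in D70-ROs to 46.8 ± 3.4 in D150-ROs (−3.49 and −2.39, adjusted p = 8.00e-12 and 9.69e-07). Over the whole list, 12 of 38 tested genes were called in D70-ROs against hiPSCs, 11 of 38 in D150-ROs against D70-ROs, 21 of 38 in D150-ROs against hiPSCs, 12 of 38 in P1 iMGCs against D150-ROs and 21 of 37 in P1 iMGCs against hiPSCs. The shares over all genes were 43.5%, 33.3%, 58.8%, 44.1% and 55.8% in the same order, so the list was called about as often as genes in general or less. On log2(FPKM + 1) the P1 iMGC comparison with D150-ROs gave 1 higher and 14 lower, where the counts gave 5 and 7. Between the passages 0 of 37 were called by edgeR, by DESeq2 or by limma, where edgeR called 2.92% of all tested genes. In edgeR 15 of them had an unadjusted p under 0.05, and none of the 37 changed 2-fold. The share of all genes under that unadjusted p was not determined, so the 15 are no result about the list.

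The genes whose pattern over the 15 libraries was most like that of each member were named as a description. They were taken by Pearson's r of log2(FPKM + 1) among 13914 genes. The 15 libraries come from the same line and fall in 5 groups, so they are not independent of each other. For UHRF1 these were HJURP (0.984), CKS1B (0.982) and CDCA8 (0.981), all known from mitosis. For DNMT1 they were ADCYAP1R1 (0.992), SMIM24 (0.991) and CTH (0.987), and for DNMT3B DNAAF5 (0.995), RPP25 (0.992) and BCR (0.992). For DNMT3A they were PDE7A (0.996), CHGA (0.993) and DDX23 (0.993), and for TET1 LLGL2 (0.996), PTPRZ1 (0.995) and ACVR2B (0.993). For TET2 they were ASH1L (0.995), HCFC2 (0.994) and JAK2 (0.994), for TET3 HIPK1 (0.985), ZNF445 (0.983) and KCNAB3 (0.982), and for TDG ANP32E (0.944), SMN1 (0.934) and EIF4E (0.917). With 5 groups, many genes reach such values, and the 99th percentile of r over all genes was 0.958 for DNMT1 and 0.979 for DNMT3B. Among the members the closest pair was DNMT3A and TET1 (r = 0.987) and the most opposed pair was UHRF1 and TET2 (r = −0.919).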

How the data were processed

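Poly(A) RNA of 15 libraries in 5 groups was sequenced. Per the submitters' notes HISAT2 served for mapping, StringTie for assembly and RSEM for quantification. The authors deposited expected counts and FPKM in the 2 tables used here. The first holds hiPSCs and ROs and the second P1 and P5 iMGCs. Comparisons of iMGCs with hiPSCs or D150-ROs therefore cross these tables. Versions, genome build and annotation were not given in the sources used here. A further table has 12 columns that were not used, 6 of iMGC values without a passage and 6 that repeat D150-ROs.

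Expected counts were rounded and tested with edgeR 4.0.16 (quasi-likelihood, TMM factors, 1 fit per pair of groups, Benjamini-Hochberg over all tested genes) in R 4.3.3. Genes needed 1 FPKM in at least 3 libraries, or in 2 with 1 library left out. limma 3.58.1 on log2(FPKM + 1) or log2(FPKM + 0.1), on which low genes change less, and DESeq2 1.42.0 were alternatives. Each was tested on simulated data. All 19684 identifiers were found in GENCODE 29 (GRCh38), which gave positions; promoter windows came from RefSeq. P-values measure only the spread between libraries of 1 line; the sources give either 2 or 3 independent experiments for hiPSCs and ROs.

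The members, the lists and the length alternative were chosen with earlier results of these data known. Beyond the members, the text names up to 3 rises and 3 falls of the 40 related genes per comparison, called and without overlap, and the 3 most similar genes.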

Additional observations from a re-analysis of the deposited data

How the results depend on the processing

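Of the 376 member values recomputed under the alternatives fixed in the plan other than leaving out a library, 355 kept their direction and their side of the limit. Of 282 with 1 library left out it was 271, and of 47 with the length trend removed, which was chosen after seeing the data, it was 36. The count of members called in D150-ROs against D70-ROs went from 2 to 1 with the length trend removed, and the other counts stayed within 1.5 times under each setting run. With the length trend removed, the log2 fold changes that changed sign were TET3 in D70-ROs (−0.034) and D150-ROs (−0.33) against hiPSCs, in D150-ROs against D70-ROs (−0.15) and in P1 iMGCs against hiPSCs (−1.13), TET1 in D150-ROs against D70-ROs (−0.24) and against hiPSCs (−1.38), and DNMT3A in D150-ROs against hiPSCs (−0.34). On log2(FPKM + 1) and log2(FPKM + 0.1), those were TDG in D150-ROs against D70-ROs (0.28 and 0.29) and in P1 iMGCs against D150-ROs (−0.31 and −0.32), DNMT3A in D150-ROs against hiPSCs (−0.18 and −0.18) and TET3 in P1 iMGCs against hiPSCs (−0.063 and −0.072). With upper-quartile factors TET1 in D150-ROs against hiPSCs was −0.003. With 1 library left out, values around 0 ranged from −0.14 to 0.041 for TDG in D150-ROs against D70-ROs, from −0.087 to 0.12 for TET1 in D150-ROs against hiPSCs and from −0.12 to 0.052 for TDG in P1 iMGCs against hiPSCs. The cause of these changes was not tested. Over all genes, the 332 calls between the passages became 694 with no minimum level, 152 on log2(FPKM + 1) and 161 against a null of 2-fold, which also took D150-ROs against D70-ROs from 4276 to 2830.

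With the replicate number as a block, 4, 2, 5, 4, 1 and 6 members were called in the order of D70-ROs against hiPSCs, D150-ROs against D70-ROs, D150-ROs against hiPSCs, P1 iMGCs against D150-ROs, P5 against P1 iMGCs and P1 iMGCs against hiPSCs, the same numbers as without it, and no member's call changed. The numbers were not taken to pair the samples, because in no comparison did the deviations of all 3 same-numbered pairs correlate at over 0.1. The correlations ran from −0.06 to 0.39, and D70-ROs against hiPSCs gave 0.06, 0.39 and 0.16 for replicates 1, 2 and 3. Depth limits DNMT3L, with at most 19 counts over a group, and TET1 in iMGCs, which lay under 1 FPKM.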

Other observations

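A list of 12 germline genes whose promoters are often silenced by methylation stayed low in all groups. It summed to between 1.36 and 1.82 FPKM in hiPSCs, 1.58 and 2.25 FPKM in D70-ROs, 2.35 and 3.25 FPKM in D150-ROs, 0.01 and 0.25 FPKM in P1 iMGCs, and 0.23 and 0.57 FPKM in P5 iMGCs. MAEL, a piRNA pathway gene, was the only one of the list to reach a mean of 1 FPKM, with 1.48 in D70-ROs and 2.15 in D150-ROs beside 0.02 in hiPSCs and 0.07 in P1 iMGCs. DAZL, a germ cell RNA-binding protein, averaged 0.93 FPKM in hiPSCs and at most 0.01 FPKM in each other group. BRDT, STRA8 and TUBA3C were listed at 0 in all 15 libraries.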
